A study of Mus musculus with 6 samples.

Results

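The genes described here form the cell's main defence against peroxides, superoxide and reactive electrophiles: the glutathione system, the thioredoxin and peroxiredoxin system, and the superoxide, quinone and haem enzymes, with the transcription factor NRF2 and its adaptor. The list holds 42 genes named for these roles, of which 39 were measured, among 19938 genes tested in all. A member was read from the probe set that carries its symbol alone in the platform annotation, and from the one with the highest mean over the 6 arrays where there were several. Prdx5, Prdx6 and G6pdx have no such probe set in the annotation used here and were not analysed here. The members were listed by their known function, with earlier results of these data known.

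Messenger RNA was read on Affymetrix arrays in bone marrow stromal cells (BMSCs), adherent marrow cells that can form bone or fat. One group was taken from mice of wild-type genotype (WT, 3 arrays) and the other from 188KO mice (KO188, 3 arrays), which lack the microRNA miR-188; both were C57BL/6 and 6 months old. Cells of both groups were grown in the same osteogenic medium, with 10% serum, 0.05 mM ascorbate-2-phosphate, 10 mM beta-glycerophosphate and the glucocorticoid dexamethasone at 100 nM. Ascorbate is itself an antioxidant, and it was present in both groups. The labels name biological replicates without giving the number of mice, whether animals were pooled, the days of culture or how the deletion was made, so the p-values measure only the spread between these samples, which may be technical. No batch is named, and genotype and any culture difference that the KO188 samples share cannot be told apart.

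Both mature forms of the missing microRNA are given to show what the groups differ in, from RefSeq on GRCm38.p6, 5′ to 3′, with the seed (bases 2 to 8) in capitals. They lie on the minus strand at chrX:7248031-7248051 and chrX:7247992-7248012.
mmu-miR-188-5p: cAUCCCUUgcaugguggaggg
mmu-miR-188-3p: cUCCCACAugcaggguuugca

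NRF2, encoded by Nfe2l2, is held in the cytoplasm and sent for degradation by KEAP1. When oxidants or electrophiles modify KEAP1, NRF2 accumulates, pairs with small MAF proteins and binds antioxidant response elements in front of genes such as Nqo1, Gclm, Gsr, Txnrd1, Srxn1 and Hmox1. Glutathione and thioredoxin are thiol carriers: peroxidases and peroxiredoxins spend their electrons on peroxides, and glutathione reductase and thioredoxin reductase restore them with NADPH. In bone, oxidants slow osteoblast formation and favour osteoclasts.

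All values are log2 signals as deposited, and a difference is KO188 minus WT on that scale. A gene was called when the adjusted p of limma, a linear model with a shared estimate of the spread, was under 0.05 over all tested genes. Across the 19938 genes 29.8% were called, 13.3% higher and 16.5% lower in KO188. Within each group, the arrays' values correlated across genes, which are not independent replicates, with r between 0.9988 and 0.9993. The array medians were 7.43, 7.44 and 7.44 in WT and 7.46, 7.50 and 7.47 in KO188, so every KO188 median lay above every WT median. The number of arrays limits the precision. The 11 measured stromal markers all lay above 6.72, the level below which 95% of 1194 chemosensory receptor genes lay, taken as a rough guide to genes not in use and chosen with the data known. All 39 members lay above it too, as did 13880 of the 19938 tested genes.

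Most of the antioxidant genes that changed were lower in KO188 by small amounts, while a few were higher, among them Gpx3 and Txnip by large ones. Of 39 members 18 fell, 4 rose and 17 did not pass the test. The falls ran from -0.53 to -0.09 and the rises from 0.13 to 2.15. The share that fell was 46.2% against 16.5% of all tested genes, and the share that rose was 10.3% against 13.3%. Calls were more frequent among bright genes, and 37 of the 39 members lay above the median level, where 30.5% of tested genes fell and 21.5% rose. The counts by system given below are small and are to be read beside these shares. Members had a median difference of -0.06, beside -0.01 over all tested genes and -0.02 over those above the median level. In 19 members every KO188 array lay below every WT array, and in 7 every KO188 array lay above, where 22.7% and 18.8% of tested genes did so. Both were more frequent among the 9969 tested genes above the median level, with 3937 wholly below and 2828 wholly above.

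These counts depend on the arrays and on the scaling. Falls numbered 11 without WT replicate 3 and 11 without KO188 replicate 3. Over all tested genes falls were fewer in these fits too, 2668 and 2761 in place of 3294. With quantile normalization 13 fell and 6 rose, so that 31.6% of the members' calls were rises in place of 18.2%. Under all 15 alternative settings 13 of the 22 calls held, 10 falls and 3 rises; Mgst3 among them was tested in 14, since the setting that leaves out dim genes drops it.

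**Figure D1:**
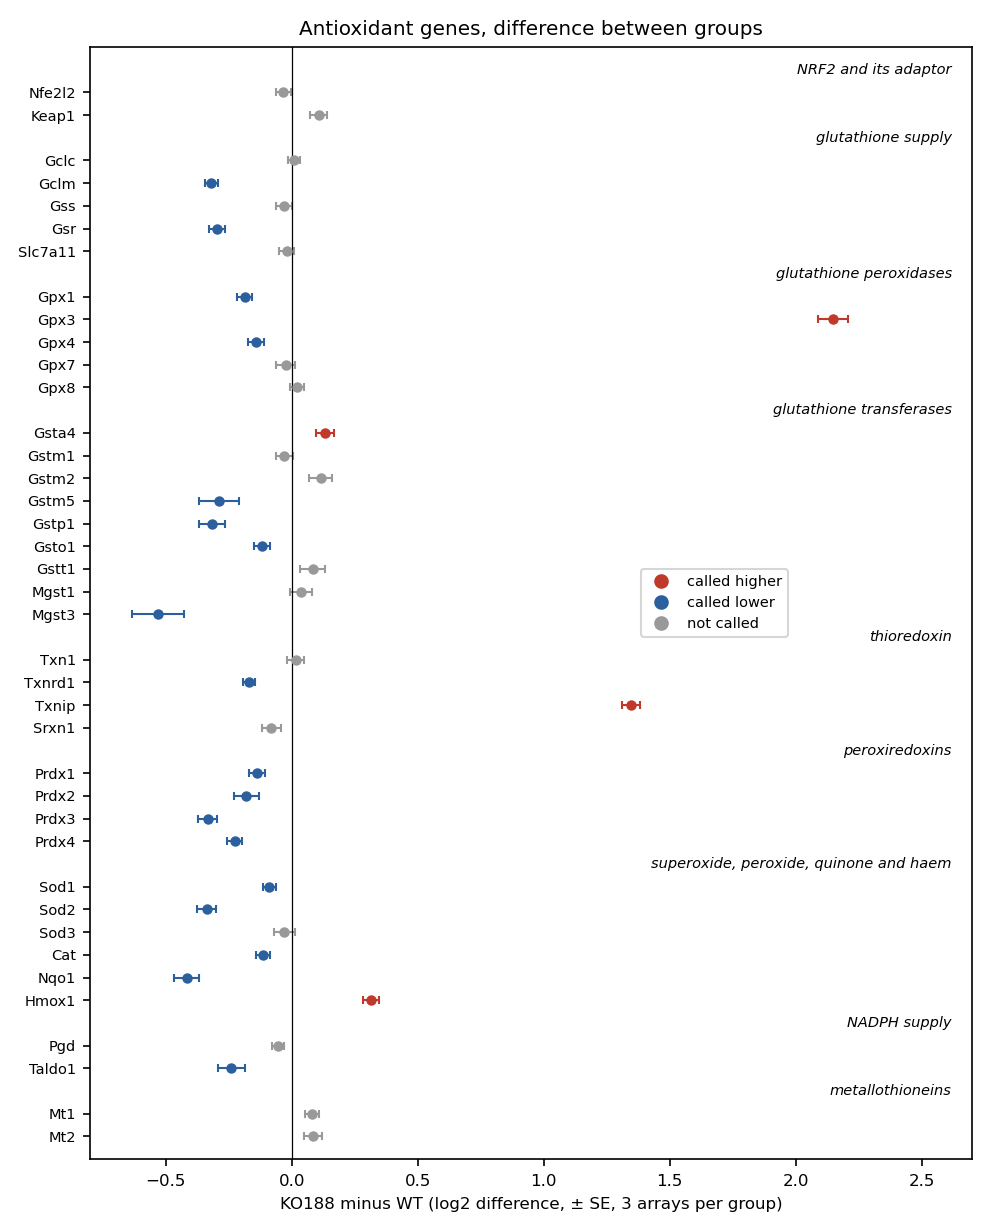
Difference of each measured antioxidant gene between KO188 and WT (log2, x axis), grouped by system, with bars for the standard error of the limma fit on 3 arrays per group. Gpx3 (2.15) and Txnip (1.35) stand far to the right, while the 18 genes called lower lie between -0.53 and -0.09.

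**Figure D2:**
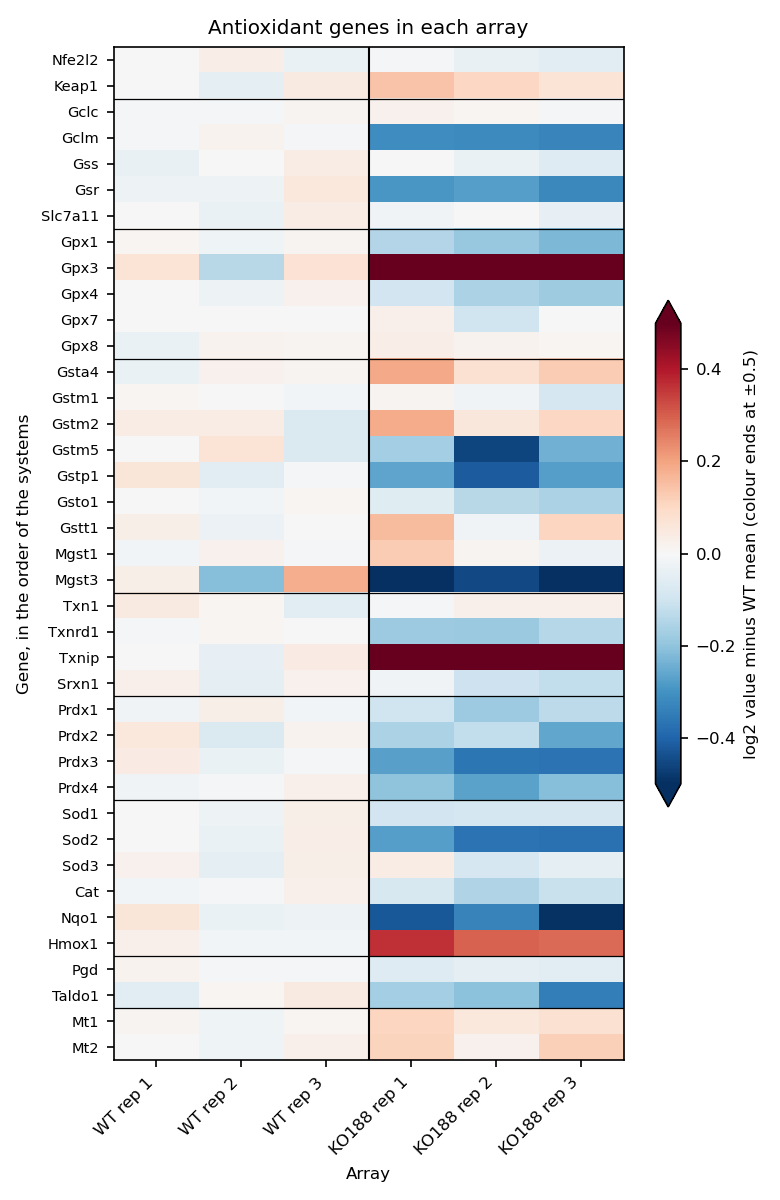
Log2 value of each gene (rows, in the order of the systems) in each array (columns) minus its WT mean, with colours that end at 0.5 in both directions. The KO188 columns are blue for Gclm, Gsr, Nqo1, Mgst3, Sod2 and the peroxiredoxins in all 3 arrays, and red for Gpx3, Txnip and Hmox1.

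Neither NRF2 nor its adaptor passed the test at the level of messenger RNA (limma, 0 of 2 called, 1 at an unadjusted p under 0.05). Nfe2l2 read 12.37, 12.41 and 12.34 in the WT arrays and 12.37, 12.34 and 12.32 in the KO188 arrays. The groups overlapped, with a difference of -0.03 (SE 0.030, limma adjusted p = 0.46). Keap1, the adaptor that marks NRF2 for degradation, read 9.40, 9.35 and 9.44 in WT and 9.54, 9.50 and 9.46 in KO188. Its KO188 arrays all lay above the WT arrays, and the difference of 0.11 (SE 0.035, limma adjusted p = 0.068) missed the threshold, which it crossed with genes below the 50th percentile left out (0.021), with a variance trend (0.049) and with a robust one (0.048). The arrays do not read NRF2 protein or its place in the cell.

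In glutathione supply, the modifier subunit of the first enzyme and the recycling enzyme fell, and the other 3 measured genes did not pass. Gclm, which encodes the modifier subunit of glutamate-cysteine ligase, read 12.15, 12.18 and 12.15 in the WT arrays and 11.85, 11.84 and 11.83 in the KO188 arrays. Its groups lay well apart, at -0.32 (SE 0.024, limma adjusted p = 0.00015), a percent change of -19.8 on the linear scale. Gclc, which encodes the catalytic subunit of the same enzyme, was 11.52 ± 0.01 (SD, n = 3) in WT and 11.53 ± 0.01 in KO188, with overlapping arrays. Gsr, which encodes glutathione reductase, read 11.59, 11.59 and 11.67 in WT and 11.33, 11.34 and 11.29 in KO188. Every KO188 array lay below every WT array, with a difference of -0.30 (SE 0.032, limma adjusted p = 0.00073). Gss, for glutathione synthetase, and Slc7a11, for the cystine importer, differed by -0.03 and -0.02 with overlapping groups.

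Among the glutathione peroxidases, which reduce peroxides at the expense of glutathione, the secreted enzyme rose, 2 intracellular ones fell and 2 did not pass. Gpx3, the secreted plasma form, read 7.36, 7.15 and 7.36 in the WT arrays and 9.43, 9.43 and 9.46 in the KO188 arrays. KO188 replicates 1 and 2 carried exactly the same value. All KO188 arrays stood about the same distance above WT, a 4.43-fold rise (difference 2.15, SE 0.060, limma adjusted p = 1.7e-06). It ranked 75th from the top among the 19938 tested differences, and its difference ran from 2.08 to 2.18 over the alternatives. Its WT level lay near the guide of 6.72, where array values are compressed, so the fold may be understated.

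Gpx1, the abundant cytosolic and mitochondrial peroxidase, read 12.12, 12.09 and 12.12 in WT and 11.96, 11.92 and 11.89 in KO188. Its groups did not overlap, and the difference was -0.19 (SE 0.030, limma adjusted p = 0.0039). Gpx4, which reduces lipid peroxides in membranes and guards against ferroptosis, read 11.14, 11.12 and 11.17 in WT and 11.05, 10.98 and 10.96 in KO188. Its groups did not overlap either, with a difference of -0.14 (SE 0.032, limma adjusted p = 0.016). The Gpx4 call was lost without WT replicate 1 (0.054), WT replicate 3 (0.054) or KO188 replicate 3 (0.050). A second Gpx4 probe set gave -0.14 as well. Gpx7 and Gpx8, peroxidases of the endoplasmic reticulum, differed by -0.02 and 0.02 with overlapping groups.

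**Figure D3:**
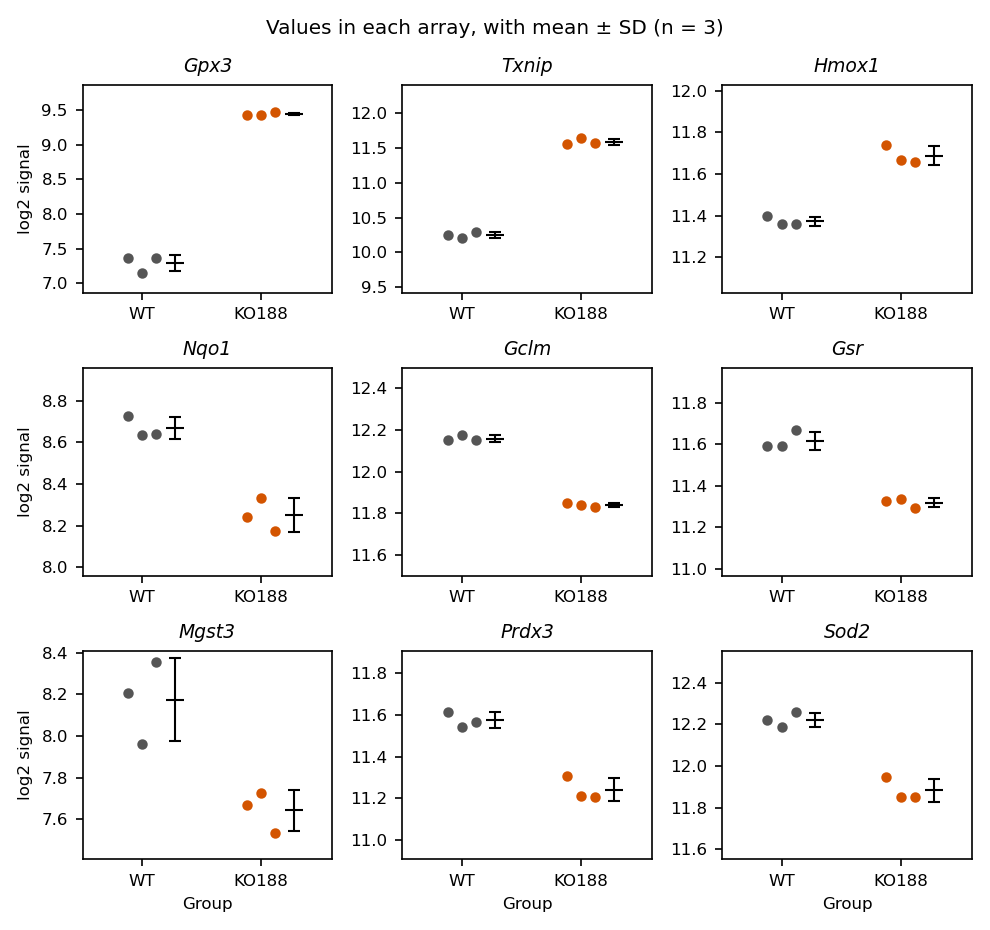
Log2 signal of 9 members in each array (dots) with the mean and SD of the 3 arrays of a group beside them; the vertical axis spans 3 log2 units for Gpx3 and Txnip and 1 for the others. The groups do not overlap in any panel: Gpx3, Txnip and Hmox1 are higher in KO188, and Nqo1, Gclm, Gsr, Mgst3, Prdx3 and Sod2 are lower.

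Glutathione transferases, which join glutathione to electrophiles, split: of 9 measured, 4 fell, 1 rose and 4 did not pass. Of these 9, 8 lay above the median level, where 30.5% of tested genes fell and 21.5% rose. Mgst3, a microsomal transferase with peroxidase activity, read 8.21, 7.96 and 8.36 in the WT arrays and 7.67, 7.72 and 7.53 in the KO188 arrays. Its WT arrays were the most scattered of the 39 members, but all lay above KO188, and the difference of -0.53 (SE 0.103, limma adjusted p = 0.0085) was the largest fall of the 39 members. Gstp1, the pi-class transferase, read 13.26, 13.15 and 13.19 in WT and 12.94, 12.78 and 12.93 in KO188. The groups did not overlap (difference -0.32, SE 0.051, limma adjusted p = 0.0040). Its close relative Gstp2 has no probe set of its own here, and a pair of probe sets that name both genes gave -0.25 and -0.23, so signal can be shared between the copies.

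Gstm5, of the mu class, read 9.21, 9.27 and 9.13 in WT and 9.04, 8.75 and 8.96 in KO188. KO188 replicate 2 was the lowest array, and the difference was -0.29 (SE 0.079, limma adjusted p = 0.033). That call was lost without WT replicate 1 (0.099), 2 (0.12) or 3 (0.063) or KO188 replicate 3 (0.071) and with all probe sets tested singly (0.066). Gsta4, an alpha-class enzyme that clears the lipid peroxidation product 4-hydroxynonenal, read 9.91, 9.97 and 9.96 in WT and 10.14, 10.02 and 10.07 in KO188. It was the one transferase that rose (0.13, SE 0.037, limma adjusted p = 0.038), with groups that came close to each other. Only the fit without KO188 replicate 2 kept the Gsta4 call when 1 array was left out, with adjusted p = 0.12, 0.077 and 0.084 without WT replicates 1, 2 and 3, 0.075 without KO188 replicate 1 and 0.092 without KO188 replicate 3; with median centring it was 0.17 and with all probe sets tested singly 0.067.

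Gsto1, an omega-class enzyme with thiol transferase activity, fell by 0.12 (limma adjusted p = 0.035), a call lost on leaving out any 1 WT array (0.077 to 0.099), KO188 replicate 2 (0.095) or KO188 replicate 3 (0.097), with quantile normalization (0.076) and with all probe sets tested singly (0.061). Gstm1, Gstm2, Gstt1 and Mgst1 lay between -0.03 and 0.11 and did not pass, though Gstm2 crossed the threshold with dim genes left out (0.045) and Gstt1 without KO188 replicate 2 (0.037). Members of the mu class resemble each other closely, and shared signal between them is possible.

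In the thioredoxin group the inhibitor rose and the reductase fell, while thioredoxin itself did not pass. Txnip encodes the thioredoxin-interacting protein, which binds thioredoxin and limits glucose uptake, and its gene is known to respond strongly to glucose. It read 10.24, 10.20 and 10.28 in the WT arrays and 11.55, 11.64 and 11.57 in the KO188 arrays. All KO188 arrays stood more than a full log2 unit above WT, a 2.54-fold rise (difference 1.35, SE 0.036, limma adjusted p = 1.3e-06) that ran from 1.30 to 1.37 over the alternatives. Txnip ranked 149th from the top of the tested differences; 1.22% of tested genes were called with a difference of at least 1 in either direction, and Gpx3 and Txnip were the members among them.

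Txnrd1, the cytosolic thioredoxin reductase, read 11.24, 11.25 and 11.24 in WT and 11.06, 11.06 and 11.10 in KO188. The groups did not overlap, with a difference of -0.17 (SE 0.026, limma adjusted p = 0.0030). Txn1, for cytosolic thioredoxin, was 13.98 ± 0.05 (SD, n = 3) in WT and 14.00 ± 0.02 in KO188, a difference within the spread between arrays. Its signal was near the top of the range of these arrays, where values can be compressed as well. Srxn1, for the sulfiredoxin that repairs over-oxidised peroxiredoxins, differed by -0.08 with overlapping groups (limma adjusted p = 0.18).

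**Figure D4:**
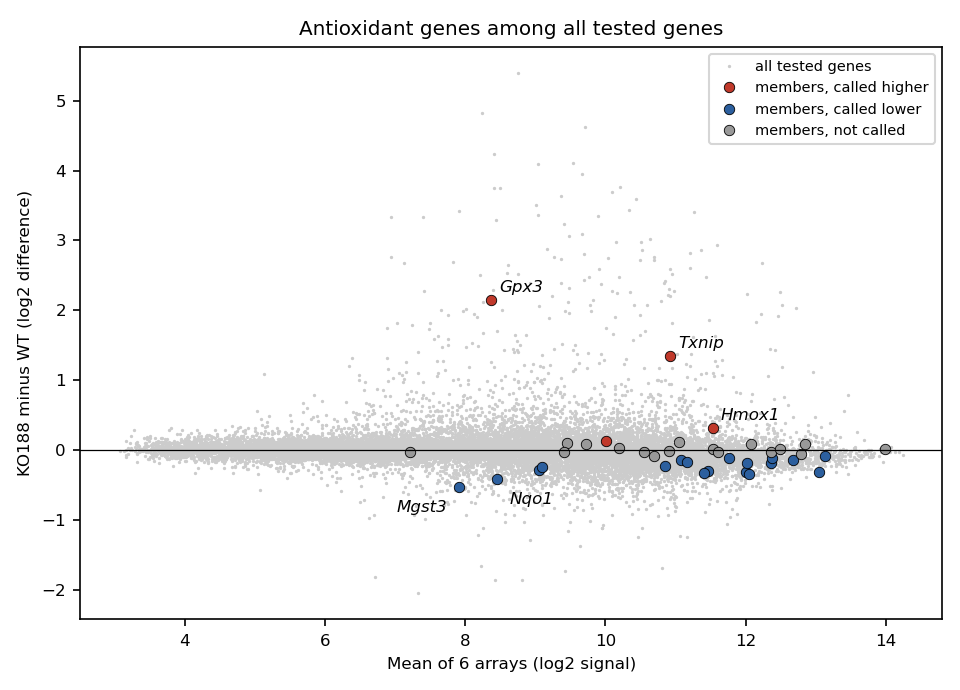
Difference between KO188 and WT (log2, y axis) against the mean of 6 arrays (log2 signal, x axis) for the 19938 tested genes (grey dots) and the 39 members (coloured by call). Gpx3 and Txnip lie above the main cloud, and the other members lie between -0.53 and 0.31.

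All 4 measured peroxiredoxins, the thiol enzymes that remove most cellular hydrogen peroxide, fell. These 4 lay above the median level, where 30.5% of tested genes fell. Prdx3, the mitochondrial form, read 11.61, 11.54 and 11.57 in the WT arrays and 11.30, 11.21 and 11.20 in the KO188 arrays. It fell furthest, by 0.33 (SE 0.038, limma adjusted p = 0.00087), with no overlap between groups. Prdx4, the form of the endoplasmic reticulum, read 10.95, 10.96 and 10.99 in WT and 10.76, 10.70 and 10.75 in KO188. Its difference of -0.23 (SE 0.029, limma adjusted p = 0.0015) was also free of overlap and, as for Prdx3, held under all 15 alternatives.

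The cytosolic pair changed less, and its calls were less stable. Prdx1 read 12.72, 12.77 and 12.72 in WT and 12.64, 12.56 and 12.61 in KO188. Its groups did not overlap at a difference of -0.14 (SE 0.032, limma adjusted p = 0.018), and the call was lost without WT replicate 2 (0.064) or KO188 replicate 3 (0.050) and with quantile normalization (0.11). A second Prdx1 probe set gave -0.21 (limma adjusted p = 0.0092 over all probe sets). Prdx2 read 12.50, 12.38 and 12.47 in WT and 12.29, 12.32 and 12.19 in KO188. The difference was -0.18 (SE 0.049, limma adjusted p = 0.033), lost on leaving out WT replicate 1 (0.11), WT replicate 3 (0.11), KO188 replicate 1 (0.071) or KO188 replicate 3 (0.084), with quantile normalization (0.070) and with all probe sets tested singly (0.062), where the second Prdx2 probe set did not pass either (-0.13, adjusted p = 0.12). Red cells are rich in Prdx2, Cat and Gpx1. Of 7 measured erythroid markers 0 passed limma's test (0 at an unadjusted p under 0.05), and their mean level was 6.66 to 6.71 in the WT arrays and 6.64 to 6.75 in the KO188 arrays.

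Of the 6 superoxide, peroxide, quinone and haem enzymes 4 fell, 1 rose and 1 did not pass. Nqo1, the quinone reductase most often used as an NRF2 readout, read 8.73, 8.63 and 8.64 in the WT arrays and 8.24, 8.34 and 8.17 in the KO188 arrays. Its groups were clearly apart, with a difference of -0.42 (SE 0.050, limma adjusted p = 0.0011) and a percent change of -25.1. Hmox1, for the inducible haem oxygenase that turns haem into biliverdin, iron and carbon monoxide, went the other way. It read 11.40, 11.36 and 11.36 in WT and 11.74, 11.67 and 11.66 in KO188, a 1.24-fold rise (difference 0.31, SE 0.032, limma adjusted p = 0.00055). Both calls held in all 15 alternatives.

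Macrophages are rich in Hmox1, and 2 of 12 macrophage markers passed the test. Mpeg1 rose from 5.72, a level below the guide of 6.72, to 7.04, which leaves its fold uncertain, Cd74 fell by 0.29, and the median difference of the list was -0.02. Its mean level was 6.62 to 6.66 in the WT arrays and 6.68 to 6.74 in the KO188 arrays, and 5 of the 12 lay above 6.72. The part of these cells in the Hmox1 result was not tested. In such bulk samples, fewer cells of a type and less RNA per cell cannot be told apart.

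Sod2, the manganese superoxide dismutase of mitochondria, read 12.22, 12.19 and 12.26 in WT and 11.95, 11.85 and 11.85 in KO188. It fell by 0.34 (SE 0.037, limma adjusted p = 0.00077) with no overlap, in all 15 alternatives. Cat, for the peroxisomal catalase, read 12.43, 12.43 and 12.46 in WT and 12.36, 12.29 and 12.33 in KO188. Its small difference of -0.11 (SE 0.029, limma adjusted p = 0.025) was lost without any 1 of the WT arrays (0.058 to 0.073), without KO188 replicate 2 (0.063) or 3 (0.063), and with quantile normalization (0.096). Sod1, the cytosolic copper-zinc enzyme, fell by 0.09 (limma adjusted p = 0.042), lost without WT replicate 1 (0.10) or 3 (0.096), without any 1 of the KO188 arrays (0.078 to 0.086), with quantile normalization (0.20) and with all probe sets tested singly (0.066). Sod3, the extracellular form, differed by -0.03 with overlapping groups.

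The pentose phosphate pathway supplies NADPH to both thiol systems, and 1 of its 2 measured members fell. Taldo1, for transaldolase, acts in that pathway but does not itself make NADPH. It read 9.16, 9.23 and 9.26 in the WT arrays and 9.05, 9.01 and 8.87 in the KO188 arrays. Its groups did not overlap, with a difference of -0.24 (SE 0.053, limma adjusted p = 0.015) that was lost without WT replicate 2 (0.058) or 3 (0.062). Pgd, for 6-phosphogluconate dehydrogenase, which does make NADPH, differed by -0.06 without overlap (limma adjusted p = 0.14). It passed with median centring (0.034) and with a variance trend, plain (0.014) or robust (0.014). The metallothioneins, cysteine-rich proteins that bind zinc and copper, did not pass (limma, 0 of 2 called, 1 at an unadjusted p under 0.05). Mt1 read 12.05, 12.02 and 12.05 in WT and 12.15, 12.09 and 12.12 in KO188, a difference of 0.08 (limma adjusted p = 0.071) that passed with quantile normalization (0.0079), with dim genes left out (0.023) and with a variance trend, plain (0.013) or robust (0.011). Mt2 differed by 0.08 too (limma adjusted p = 0.14), with overlapping groups, and passed with quantile normalization (0.020), with a robust variance trend (0.038) and without KO188 replicate 2 (0.038).

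Other genes of the same pathways, 89 listed and 85 measured, were read beside the members. Of these 16 rose, 24 fell and 45 did not pass, with a median of -0.02; with median centring 9 rose and 27 fell. The shares, 18.8% higher and 28.2% lower, were near those of all tested genes above the median level (21.5% and 30.5%), where 66 of the 85 lay. Of 9 other genes listed under NADPH supply 7 fell and 0 rose (limma, 7 at an unadjusted p under 0.05), with a median of -0.25. All 9 lay above the median level, where 30.5% of tested genes fell. Some of them, such as Tkt, act in the pentose phosphate pathway without making NADPH. Idh1, the cytosolic isocitrate dehydrogenase, fell from 11.64 ± 0.01 (SD, n = 3) to 11.12 ± 0.01, a difference of -0.52 (limma adjusted p = 1.8e-05). Me1, for malic enzyme, which also feeds fatty acid synthesis, fell by 0.42, and Tkt, for transketolase, fell by 0.39. Fat cells use these enzymes for lipid synthesis, and of 9 measured adipocyte markers 2 fell and 1 rose. Pparg, for the nuclear receptor that drives adipogenesis, fell by 1.86, the fatty acid carrier gene Fabp4 fell by 0.33, and the lipoprotein lipase gene Lpl rose by 0.54. The list's mean level was 7.24 to 7.28 in the WT arrays and 7.06 to 7.20 in the KO188 arrays, and its part in the NADPH result was not tested.

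The other thioredoxin genes were divided, with 5 rises and 5 falls among 14. Sesn2, for sestrin 2, a stress-induced protein that restrains mTOR complex 1, rose by 0.35 (limma adjusted p = 0.00048). NRF2's partners and competitors were divided too, with 3 rises and 2 falls among 10. The small MAF partners went different ways. Mafk rose by 0.35 (limma adjusted p = 0.0013), Maff differed by -0.34 (limma adjusted p = 0.0040) and Mafg did not pass (0.03). Bach1, for the repressor that competes with NRF2 and is best known at Hmox1, rose by 0.15 (limma adjusted p = 0.013), and Cul3, for the ubiquitin ligase scaffold used by KEAP1, fell by 0.16 (limma adjusted p = 0.0073). Maff, Mafg, Bach1 and Cul3 were named after their values were seen.

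Among 11 other transferases 2 rose and 0 fell (limma; 3 passed at an unadjusted p under 0.05). Gstm7 rose by 0.33 (limma adjusted p = 0.0092). Other glutathione genes fell in 6 and rose in 2 of 19, and other detoxification genes fell in 3 and rose in 2 of 16. The metal genes held opposite changes of a pair of zinc and manganese importers. Slc39a8 rose by 0.25 (limma adjusted p = 0.011) and Slc39a14 fell by 0.38 (limma adjusted p = 0.00011).

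**Figure D5:**
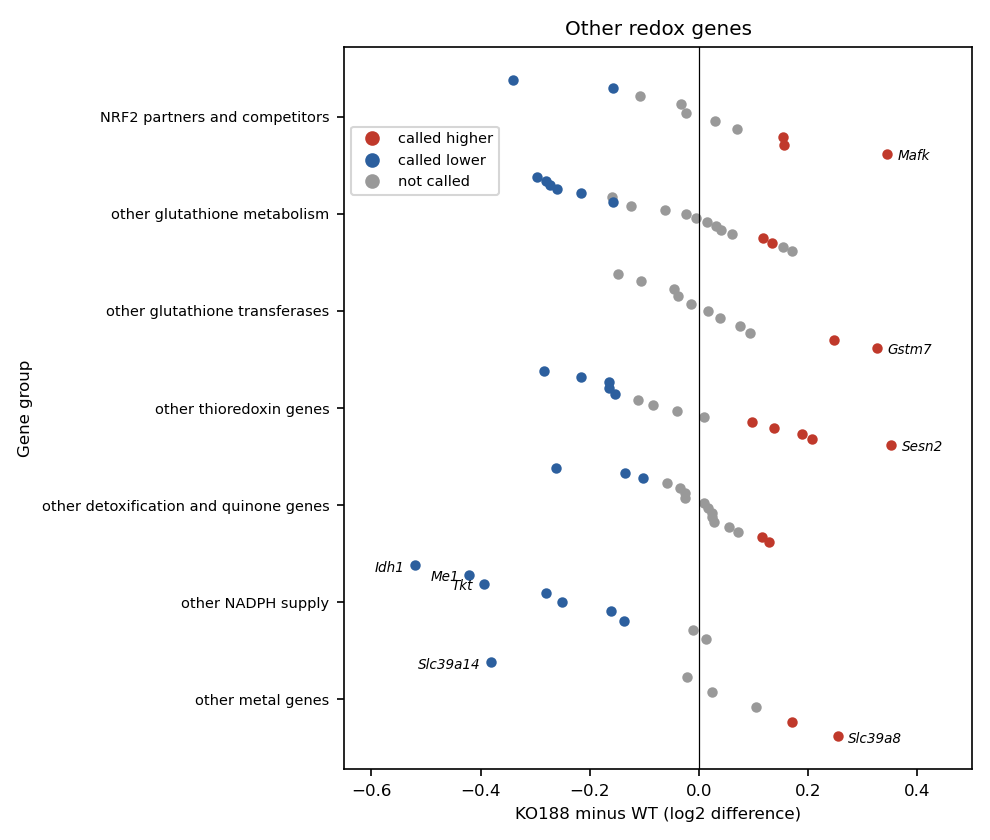
Differences between KO188 and WT (log2, x axis) of 85 other redox genes in 7 groups (y axis), 1 dot per gene ordered by difference within its group and coloured by call. The NADPH supply group lies almost wholly to the left of 0, with Idh1 at -0.52, while the other groups have genes on both sides.

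Promoters were read where members shared a change or moved far. RefSeq promoter windows of GRCm38.p6, from 250 bases before to 50 bases after a gene's start, were at hand for 36 of the 42 members (44 windows). They were searched on both strands for TGACNNNGC, the core of the antioxidant response element. It stood in 11 of the 44 windows, beside 12.4% of all 32851 windows. Of the 11 members with a match 10 were measured: 5 fell (Gclm, Txnrd1, Prdx1, Gstm5 and Sod1) and 0 rose. That share of falls is close to the one over all measured members (18 of 39), which include these 10. Nqo1, Gsr and Hmox1, named above as genes with such elements, are not among the members with a match. Elements outside the windows were not searched, so a match does not sort members into NRF2 targets and others. The match in Gclm, Txnrd1 and Prdx1 is shown in capitals. It is given on the plus strand of the genome and so as the reverse complement of the letters searched. The windows are chr3:122245399-122245455 for Gclm, chr10:82859090-82859146 for Txnrd1 and chr4:116685442-116685498 for Prdx1.
Gclm: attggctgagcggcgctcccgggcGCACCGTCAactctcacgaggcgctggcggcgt
Txnrd1: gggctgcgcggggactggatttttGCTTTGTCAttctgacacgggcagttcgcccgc
Prdx1: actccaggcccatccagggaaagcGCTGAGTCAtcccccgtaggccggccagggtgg

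Txnip is known for a carbohydrate response element, a pair of E-box-like hexamers set 5 bases apart. The letters CACGNGNNNNNCACGNG were found in 16 of the 32851 windows (0.049%), and among the members' windows in that of Txnip alone, from 85 to 69 bases before its start. The stretch at chr3:96557832-96557928, plus strand, is shown with the match in capitals.
Txnip: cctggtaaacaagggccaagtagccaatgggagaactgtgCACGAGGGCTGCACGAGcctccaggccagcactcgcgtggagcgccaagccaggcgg
A match of letters is a description and does not show that a factor binds there. Both motifs were chosen with the results known, and overlap with other motifs was not examined.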

How the data were processed

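Total RNA of 6 samples was read on Affymetrix arrays. The deposited table holds log2 values for 35556 probe sets; per the submitters' processing notes, the authors used RMA, Partek and Affymetrix Expression Console (versions, probe annotation and genome build: not given in the sources used here). RMA compresses differences at dim levels. Groups came from sample titles. GEO's platform annotation gives 21789 probe sets 1 symbol, 1621 several and the rest none; of the first, 21698 matched the RefSeq table of GRCm38.p6 and 0 symbols changed.

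KO188 was compared with WT by lmFit and eBayes of limma 3.58.1 (R 4.3.3; no covariate, no filter), with Benjamini-Hochberg adjustment over 19938 genes; the code was tested on simulated data. Alternatives were other scalings, probe set rules, variance models, array weights, a filter, a replicate block and leaving out each array. Members and lists were chosen with earlier results of these data known. Named genes were up to 4 called members per system by size, Nfe2l2, Keap1, Nqo1 and Hmox1, and the 4 largest rises and falls of the wider list. Figures used matplotlib 3.10.9. Marker lists of 7 cell types were read: of the measured markers, 7 of 11 stromal rose and 2 fell, 1 of 9 adipocyte rose and 2 fell, 1 of 10 endothelial rose, and limma called 0 of 12 granulocyte and 0 of 8 lymphocyte markers (0 in each at an unadjusted p under 0.05).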

Additional observations from a re-analysis of the deposited data

How the results depend on the processing

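Gpx3, Txnip, Hmox1, Gclm, Gsr, Gpx1, Gstp1, Mgst3, Txnrd1, Prdx3, Prdx4, Sod2 and Nqo1 passed in every alternative in which they were tested. So did the 8 genes of the wider list named for the size of their difference. The other 9 calls of members were lost in at least 1 alternative, and 6 members gained one. No called member changed direction. Members that rose numbered 7, in place of 4, with genes below the 50th percentile left out, which tests 9969 genes, and 7 with a robust variance trend. With arrays centred on their medians the members' median was -0.10 and 9 genes of the wider list rose in place of 16. That centring moved the median of all genes to -0.05, and 30.8% of all calls were rises in place of 44.5%. With 1 array left out, 3 to 6 members rose, 11 to 16 fell and their median ran from -0.06 to -0.05; in the wider list 12 to 16 rose and 19 to 23 fell. The lowest counts of falls among the members came without WT replicate 3 and without KO188 replicate 3. Every fit with 1 array left out called fewer of all tested genes, 4835 to 5553 in place of 5937. With the replicate block 3 members rose and 12 fell (Gstm5, Gsta4, Gsto1, Prdx1, Prdx2, Cat and Sod1 did not pass, adjusted p = 0.062 to 0.12), and 5019 genes were called in place of 5937; same-numbered arrays did not deviate together (r = 0.02, 0.01 and -0.03), and not every array correlated best with its own number, so they share only a number. The causes were not tested.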

Other observations

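The deposited table holds values that are identical between arrays. In 26.5% of tested genes (5285) at least 2 of the 3 arrays of a group carried exactly the same value, and in 802 all 3 did. Among the members this touched Gclm, Gsr, Gpx3 and Gpx7, and the 3 WT arrays of Gpx7 were identical at 7.23. Such ties lower the spread measured for a gene.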
